A study of Mus musculus with 6 samples.

Results

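The subunits of the mitochondrial respiratory chain and ATP synthase were examined in bulk RNA-sequencing of mouse lung. They were taken as the protein-coding rows of the read count table whose symbols follow the Nduf, Sdh, Uqcr, Cox4 to Cox8, Atp5 and mt- subunit names. This gave 98 of 54532 rows, 85 encoded in the nucleus and 13 in mitochondrial DNA (mtDNA). Of the nuclear members, 35 belong to complex I, 4 to complex II, 8 to complex III, 20 to complex IV and 18 to complex V, with Ndufa4 and Ndufa4l2 placed in complex IV. The rule leaves out assembly factors, Ndufab1 and cytochrome c1 (Cyc1), and takes in Atp5s, a factor B-like protein.

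Lungs came from littermates of a 129/SvEv x C57BL/6 background, aged 10 to 16 weeks. GRdim/dim mice carry a point mutation of the glucocorticoid receptor (GR) that impairs its dimerization, and GR+/+ mice carry the wild-type receptor. All mice had hemorrhagic shock (HS) for 1 h, with arterial pressure held at a mean of 35 mmHg, and then 4 h of resuscitation with re-transfused blood, colloid and norepinephrine, under ventilation. There were 3 mice and 3 libraries per genotype, with 2 females and 1 male among GR+/+ and 1 female and 2 males among GRdim/dim. No unshocked lungs are compared here. A point mutation leaves no mark in gene counts, so the labels could not be checked on the mutated gene. The GR target genes Tsc22d3 (177 to 298 CPM in GR+/+ against 103 to 149 CPM in GRdim/dim), Fkbp5 (79.4 to 152 against 37.4 to 52.2), Klf9 (212 to 297 against 75.0 to 132) and Ccl20 (13.7 to 16.9 against 3.81 to 9.06) were lower in every GRdim/dim library than in every GR+/+ library, where CPM are counts scaled to library size and composition. The study chose these genes on these samples. The libraries held 15687734 to 32082940 counts. Markers of alveolar type 2 cells summed to 15267 to 23708 CPM in every library, and all 6 were detected. Replicates of 1 genotype differed by far more than counting noise.

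The respiratory chain passes electrons from NADH (complex I) and succinate (complex II) through complex III to oxygen at complex IV, and the proton gradient this builds drives ATP synthase (complex V). Each complex except complex II joins subunits made from nuclear genes with subunits made from mtDNA, so both genomes must be expressed together. The mtDNA is transcribed as long precursors from both strands, and only mt-Nd6 among the subunits lies on the light strand. Nuclear subunit genes often carry motifs of the factors NRF1, GABPA (an ETS factor) and YY1 at their starts.

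The first bases of mt-Nd3 and of Gm28438, an annotated unprocessed pseudogene on chr1, are shown because nearly all of the mt-Nd3 sequence recurs there. The capital marks the 1 base of 345 that differs, T3C, counted from the 5′ end of mt-Nd3 (GENCODE M21, GRCm38, the assembly also called mm10). Gm28438 lies at chr1:24612775-24613119 on the minus strand and mt-Nd3 at MT:9459-9806 on the plus strand.
mt-Nd3: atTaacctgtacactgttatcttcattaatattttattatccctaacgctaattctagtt
Gm28438: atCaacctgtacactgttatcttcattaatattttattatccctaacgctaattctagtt

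The starts of 4 nuclear subunit genes are shown as RefSeq gives them (GRCm38.p6), 250 bases before to 50 after the start of transcription. Atp5l, Atp5h and Ndufs7 are the members with the lowest unadjusted p-values on the higher side in GRdim/dim lungs that the promoter table holds, and Atp5k had the lowest log2 fold change. Capitals mark matches, on either strand, to NRF1 (GCGCANGC), ETS (CCGGAAG) and YY1 (AANATGGC). The windows are chr9:44920693-44920992 (minus strand) for Atp5l, chr11:115419870-115420169 (minus) for Atp5h, chr10:80249199-80249498 (plus) for Ndufs7 and chr5:108434350-108434649 (minus) for Atp5k.
Atp5l: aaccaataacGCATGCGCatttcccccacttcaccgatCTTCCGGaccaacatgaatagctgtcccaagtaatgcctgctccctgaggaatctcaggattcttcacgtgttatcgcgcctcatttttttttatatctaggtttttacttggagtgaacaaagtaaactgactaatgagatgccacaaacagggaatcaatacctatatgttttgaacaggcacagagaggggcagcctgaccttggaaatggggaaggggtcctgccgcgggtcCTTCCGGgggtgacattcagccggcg
Atp5h: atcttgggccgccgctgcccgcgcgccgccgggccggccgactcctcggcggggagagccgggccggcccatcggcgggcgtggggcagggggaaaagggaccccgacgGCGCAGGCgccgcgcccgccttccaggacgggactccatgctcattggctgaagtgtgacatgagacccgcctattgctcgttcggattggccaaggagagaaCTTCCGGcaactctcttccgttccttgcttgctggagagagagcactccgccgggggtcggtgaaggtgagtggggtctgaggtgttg
Ndufs7: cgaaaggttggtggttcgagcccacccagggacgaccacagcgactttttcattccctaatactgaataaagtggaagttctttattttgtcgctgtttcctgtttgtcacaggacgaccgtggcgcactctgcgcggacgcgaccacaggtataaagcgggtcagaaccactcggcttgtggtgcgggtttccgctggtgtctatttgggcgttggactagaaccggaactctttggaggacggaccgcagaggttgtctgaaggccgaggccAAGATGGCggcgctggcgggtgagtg
Atp5k: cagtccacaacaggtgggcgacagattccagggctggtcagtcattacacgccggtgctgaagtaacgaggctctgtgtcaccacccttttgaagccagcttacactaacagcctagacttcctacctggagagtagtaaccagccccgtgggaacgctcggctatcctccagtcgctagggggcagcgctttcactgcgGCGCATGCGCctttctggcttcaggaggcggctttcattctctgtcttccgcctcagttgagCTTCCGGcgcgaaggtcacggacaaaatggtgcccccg

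All 85 nuclear members matched a RefSeq gene, and 68 of them had promoters in the table, 73 in all. The NRF1 letters were found in 25 of the 73 (34.2%), against 9.95% of all 32851 promoters of the same length. The ETS letters were in 16 (21.9% against 8.86%) and the YY1 letters in 17 (23.3% against 6.05%). YY1 matches fell mostly in complex I (12 of 33 promoters), and NRF1 matches were found in 10 of 33 promoters of complex I, 3 of 3 of complex II, 2 of 5 of complex III, 1 of 14 of complex IV and 9 of 18 of complex V. The core of a glucocorticoid response element, ACANNNTGT, was in none of the 73 and in 6.85% of all promoters, which says only that these letters are not in this window. Motifs were counted one by one, and overlaps were allowed. Of the promoters shown, Atp5l, Atp5h and Atp5k each hold NRF1 and ETS letters and Ndufs7 holds a YY1 match.

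The comparison of GRdim/dim with GR+/+ lungs asks which transcripts depend on GR dimerization after HS. No respiratory chain subunit was a differentially expressed gene (DEG) in this comparison. A DEG was a gene with a Benjamini-Hochberg adjusted p under 0.05 in edgeR's quasi-likelihood test and a log2 fold change beyond 0.5. Of all 16568 genes tested, 28 were DEGs (0.169%), and none of the 94 members that passed the filter on low counts was among them. The lowest adjusted p of a member was 0.431 with edgeR. With DESeq2, 274 of 16150 genes with an adjusted p were called by the same thresholds (1.7%), and no member was.

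Below the adjusted threshold, 5 members had an unadjusted edgeR p under 0.05 and a higher level in GRdim/dim lungs, which is 5.32% of the 94, beside 4.91% of all genes tested. None was lower at that p, beside 4.68% of all genes. For 5 members every GRdim/dim library was above every GR+/+ library, beside 7.77% of all genes, and for none was every one below, beside 7.05%. These were Atp5g1, Atp5l, Ndufb5, Sdhc and Uqcrc1, of which Atp5g1 and Ndufb5 are named only after their values were seen. The shares on the higher side are near those of all genes. Of the 94 members, 58 had a log2 fold change above 0 (61.7%, beside 50.9% of all genes) and 36 below. The median was 0.07 for the 82 nuclear members and 0.04 for the 12 mtDNA-encoded members, and 0.01 for all genes. The median size of a change, whatever its sign, was 0.17 for members and 0.21 for all genes on the log2 scale. For 79 members the 95% interval of the log2 fold change lay within 1 on either side of 0.

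**Figure D1:**
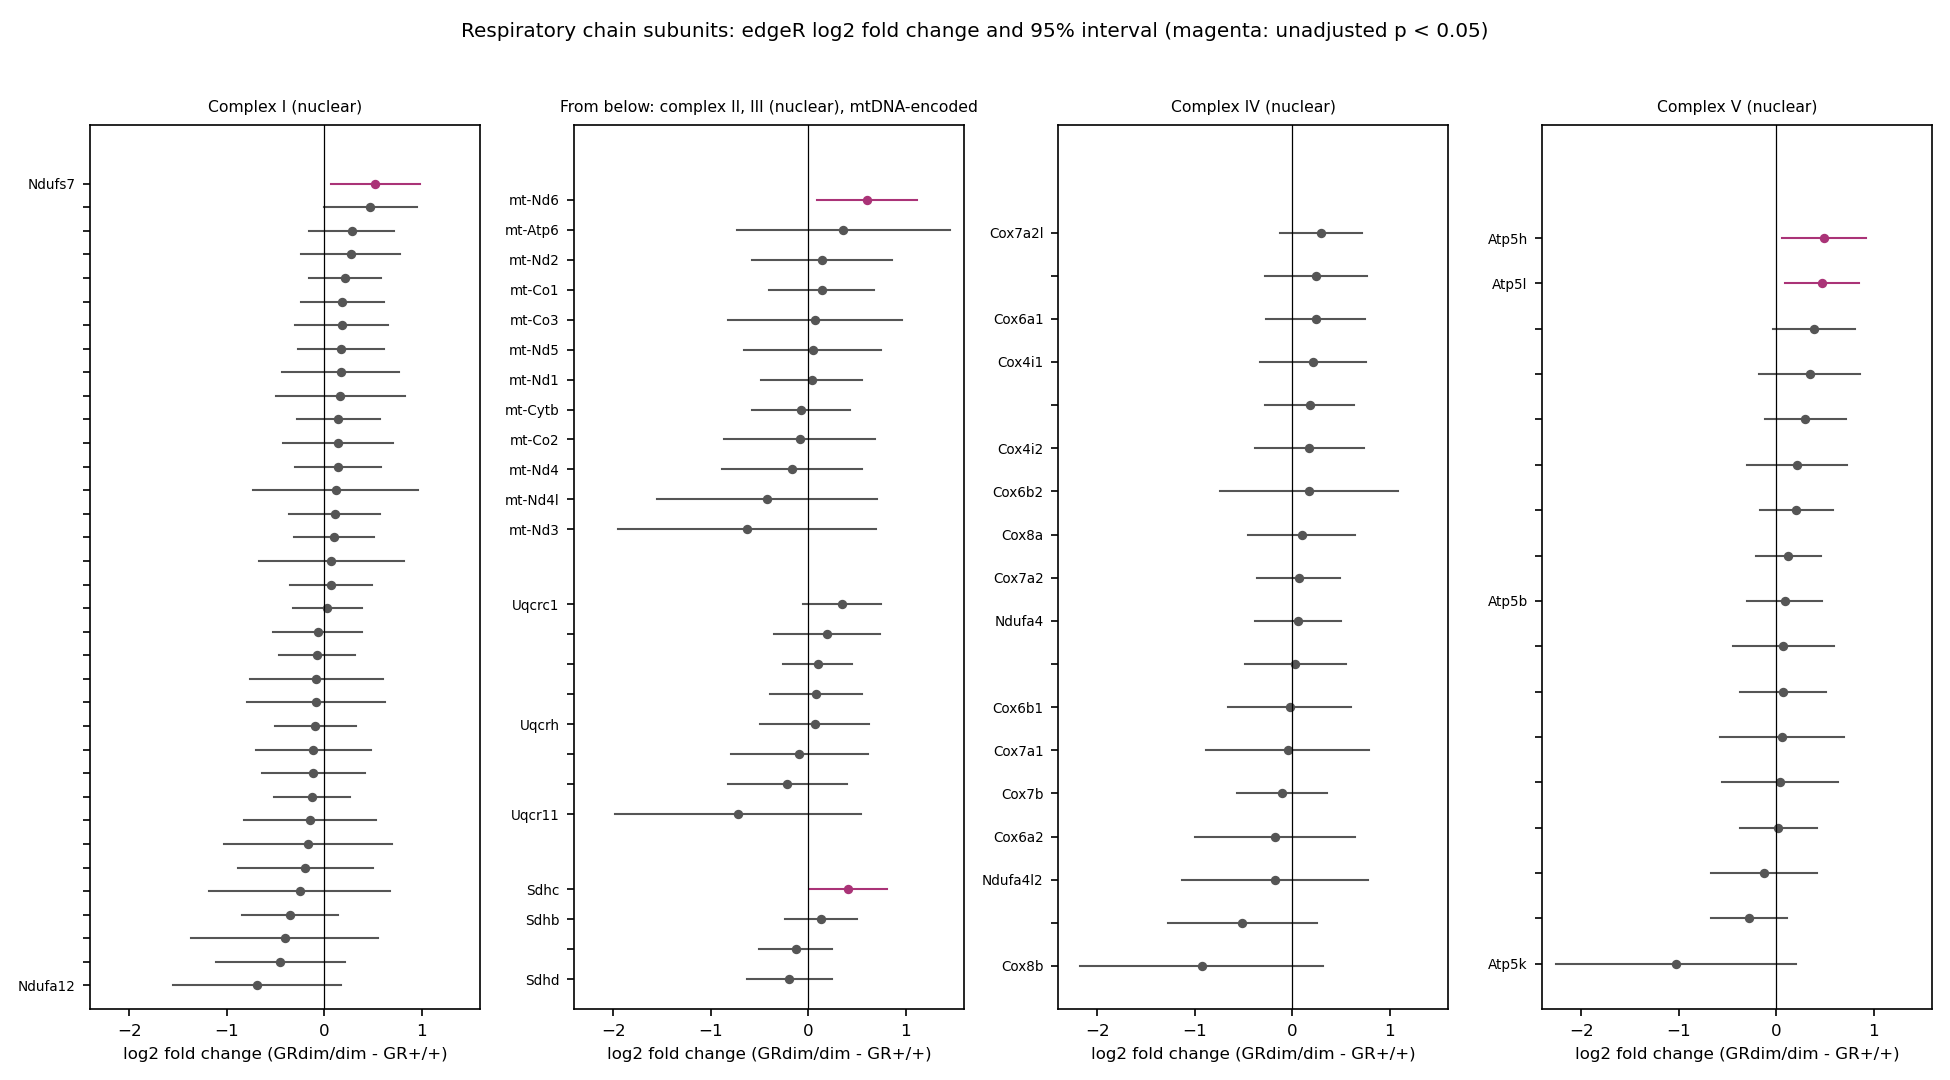
Fold change of the members tested, with names for those chosen by the naming rule. Points are edgeR log2 fold changes (GRdim/dim minus GR+/+), lines their 95% intervals, and magenta marks the 5 members with an unadjusted p under 0.05, all on the higher side. Changes run from -1.03 for Atp5k to 0.60 for mt-Nd6.

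Complex V held a pair of the 5 members. Atp5l, subunit g of the membrane part of ATP synthase (chr9:44912557-44920742), stood at 57.2, 55.8 and 70.2 CPM in GR+/+ replicates 1 to 3 and at 73.1, 87.4 and 93.4 CPM in GRdim/dim. Every GRdim/dim library was above every GR+/+ library. The log2 fold change was 0.47 (standard error, SE, 0.17; unadjusted p = 0.0206, adjusted p = 0.431, edgeR). Atp5h, subunit d of the peripheral stalk (chr11:115415689-115419962), stood at 84.9, 103 and 129 CPM against 129, 149 and 168 CPM. The highest GR+/+ library (129.2) and the lowest GRdim/dim library (129.0) met at the same level. The log2 fold change was 0.49 (SE 0.19; unadjusted p = 0.0286, adjusted p = 0.456, edgeR).

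Both genes have processed pseudogene copies. Of the 31-base windows of the Atp5l transcript 85.4% recur in another annotated gene, and 60.8% of those of Atp5h. The copies sharing most windows held few counts, 9 to 53 per library for Gm10221 (Atp5l) and 8 to 26 for Gm10250 (Atp5h). Their part in the values was not tested.

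At the other end of complex V was Atp5k, subunit e of the same membrane part as subunit g (chr5:108433244-108434448). It stood at 16.1, 18.5 and 27.8 CPM in GR+/+ and at 9.17, 2.78 and 19.0 CPM in GRdim/dim. The third GRdim/dim library lay within the GR+/+ range and the other two lay below it. Its log2 fold change of -1.03 had an SE of 0.55 (unadjusted p = 0.0918, adjusted p = 0.605, edgeR), an interval from -2.26 to 0.20. Atp5b, the beta subunit of the catalytic head and the member of complex V with the highest level per kb of transcript (268 CPM per kb), stood at 498.8 ± 27.0 CPM in GR+/+ and 530 ± 34.0 CPM in GRdim/dim (SD, n = 3), a log2 fold change of 0.09 (SE 0.17). Of the 17 members of complex V tested, 14 had a log2 fold change above 0, beside 50.9% of all genes, with a median of 0.09. The members share the same libraries and are not independent. Their summed level was 1880, 1998 and 2136 CPM in GR+/+ and 1966, 1981 and 2548 CPM in GRdim/dim, so the genotypes overlapped.

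In complex I, Ndufs7 had the highest log2 fold change. It is a core subunit that carries the last iron-sulphur cluster before ubiquinone (chr10:80249121-80256794). Its levels were 62.5, 77.4 and 64.2 CPM in GR+/+ and 73.0, 97.7 and 123 CPM in GRdim/dim. The lowest GRdim/dim library was below the highest GR+/+ library. The log2 fold change was 0.53 (SE 0.21; unadjusted p = 0.0282, adjusted p = 0.454, edgeR), and none of its 31-base windows recurs in another annotated gene. Ndufs7 was also the complex I member with the highest level per kb, 109.5 CPM per kb. Over all 35 members of complex I, 19 were above 0 and 16 below.

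The complex I member with the lowest value was Ndufa12, an accessory subunit of the matrix arm (chr10:94198720-94221443). It stood at 19.96, 25.5 and 37.4 CPM in GR+/+ and at 12.4, 10.2 and 29.1 CPM in GRdim/dim. As for Atp5k, GRdim/dim replicate 3 lay within the GR+/+ range and the other GRdim/dim libraries below it. The log2 fold change was -0.69 (SE 0.39; adjusted p = 0.631, edgeR). Its processed pseudogene Gm15920 shares 29.3% of its 31-base windows and held 74 to 246 counts per library, beside 230 to 1176 for Ndufa12. The part of this copy in the values was not tested.

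Complex II is built from nuclear subunits alone. Sdhc, the larger membrane anchor (chr1:171127165-171150603), stood at 70.0, 76.1 and 66.1 CPM in GR+/+ and at 82.4, 84.3 and 116 CPM in GRdim/dim, without overlap. Its log2 fold change was 0.41 (SE 0.18; unadjusted p = 0.0433, adjusted p = 0.499, edgeR). The partner anchor Sdhd had the lowest log2 fold change of the complex, -0.19 (SE 0.20). The iron-sulphur subunit Sdhb, with the highest level per kb of the complex (64.9 CPM per kb), was at 0.13 (SE 0.17). The median of the 4 was 0.00.

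In complex III the highest log2 fold change was that of the core protein Uqcrc1, at 128, 136 and 101 CPM in GR+/+ and 140, 145 and 179 CPM in GRdim/dim. All GRdim/dim values exceeded all GR+/+ values. The log2 fold change was 0.34 (SE 0.18; unadjusted p = 0.0856, adjusted p = 0.595, edgeR). Uqcr11, a small subunit, had the lowest value. It stood at 20.6, 28.4 and 49.5 CPM in GR+/+ and at 8.68, 11.96 and 39.4 CPM in GRdim/dim, a log2 fold change of -0.72 (SE 0.55; adjusted p = 0.759, edgeR). The third library of each genotype was the highest for Uqcr11. The hinge protein Uqcrh had the highest level per kb (156 CPM per kb) and a log2 fold change of 0.07 (SE 0.25).

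**Figure D2:**
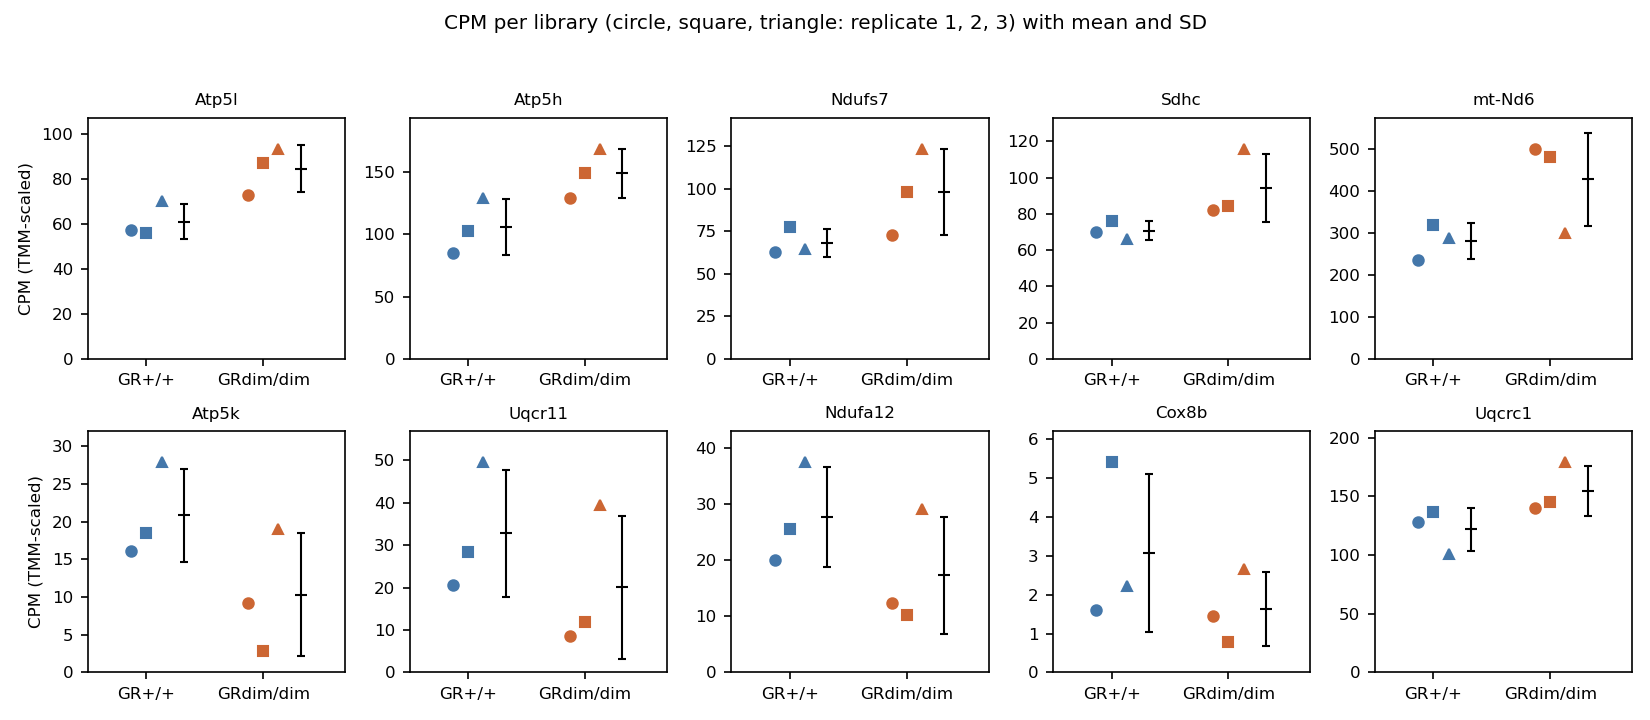
CPM of 10 members in each library. Circle, square and triangle are replicates 1, 2 and 3, bars the mean and SD (n = 3), and axes start at 0. The upper row holds the 5 members with an unadjusted p under 0.05, and in the lower row GRdim/dim replicate 3 lies within the GR+/+ range for Atp5k, Uqcr11, Ndufa12 and Cox8b.

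Complex IV had no member with an unadjusted p under 0.05 among the 18 tested. Its highest value was that of Cox7a2l, which takes part in joining complexes III and IV, at 0.29 (SE 0.19). The lowest was Cox8b at -0.93 (SE 0.56; adjusted p = 0.666, edgeR). Several of its subunits come as paired isoforms. The ubiquitous isoforms carried most of the transcript in these lungs. Cox6a1, at 299 CPM per kb the highest nuclear member per length, and Cox4i1, at 287 CPM per kb, stood far above Cox6a2 (18.5 CPM per kb) and Cox4i2 (52.3 CPM per kb). Cox8a was at 207 CPM per kb and Cox8b at 6.54 CPM per kb. The 7 ubiquitous isoforms (Cox4i1, Cox6a1, Cox6b1, Cox7a2, Cox7b, Cox8a and Ndufa4) had log2 fold changes from -0.10 to 0.24, with a median of 0.07.

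Cox4i2, the isoform of subunit 4 known for its expression in lung, stood at 32.1, 50.2 and 25.8 CPM in GR+/+ and at 34.9, 40.2 and 47.0 CPM in GRdim/dim. The ranges overlapped, with a log2 fold change of 0.18 (SE 0.25). Ndufa4l2, a hypoxia-induced relative of Ndufa4, was at -0.18 (SE 0.43), and Cox6b2, the testis isoform, at 0.17 (SE 0.41). A pair of germ-line isoforms failed the filter, Cox7b2 with 0 to 2 counts per library and Cox8c with 0 to 3.

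The isoforms of heart, skeletal muscle and brown fat, Cox6a2, Cox7a1 and Cox8b, were present at low levels. Their summed CPM was 14.1, 27.2 and 17.9 in GR+/+ and 10.5, 13.6 and 26.1 in GRdim/dim, so the genotypes overlapped. The log2 fold changes were -0.18 (SE 0.37) for Cox6a2, -0.05 (SE 0.38) for Cox7a1 and -0.93 for Cox8b. Lung tissue holds cardiac muscle in the walls of its veins, and all 13 cardiomyocyte markers were detected, 12 of them above the filter. Their summed level was 192 to 1103 CPM in GR+/+ and 485 to 993 CPM in GRdim/dim. Brown adipocyte markers summed to 36.9 to 136 CPM and 18.7 to 127 CPM, and skeletal muscle markers to 6.26 to 15.3 CPM and 9.35 to 26.2 CPM. GR+/+ replicate 2 was highest among GR+/+ in the isoforms and in all 3 marker sums, and GRdim/dim replicate 3 among GRdim/dim. The other libraries did not keep this order. GR+/+ replicate 1 was below replicate 3 in the isoforms and above it in all 3 marker sums (cardiomyocyte 615 against 192 CPM). GRdim/dim replicate 1 was below replicate 2 in the isoforms and above it in all 3 marker sums (cardiomyocyte 718 against 485 CPM). Among the brown adipocyte markers Ucp1, the uncoupling protein that defines these cells, was at 19.3 CPM in GR+/+ replicate 2 and at 0 to 0.17 CPM in the other 5 libraries, and it failed the filter. The same library was the highest for Cox8b (5.40 CPM), and without it the log2 fold change of Cox8b was -0.26. The part of these cells in the isoform levels was not tested.

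Levels of nuclear members were highest in 1 library, GRdim/dim replicate 3. As a share of all counts they made up 0.504%, 0.570% and 0.603% in GR+/+ and 0.511%, 0.533% and 0.725% in GRdim/dim. GRdim/dim replicate 3 was the highest library for 55 of the 82 nuclear members (67.1%), and for 23.0% of all genes. Relative to each gene's own mean, the median nuclear member in that library was 0.43 higher on the log2 scale, against -0.21 and -0.14 in the other GRdim/dim libraries and -0.19, -0.01 and 0.10 in GR+/+. Between pairs of nuclear members the median correlation over the 6 libraries was 0.59 (3321 pairs that share the same libraries, a description), and 0.31 over the 5 libraries without GRdim/dim replicate 3. The SD within a genotype was larger in GRdim/dim for 65 of the 82 (79.3%), with a median SD of 0.35 on the log2 scale in GRdim/dim and 0.21 in GR+/+. Over all genes tested it was larger in GRdim/dim for 61.7%, with medians of 0.31 and 0.24.

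The mtDNA-encoded members stood the other way round in the same library. They made up 1.06%, 1.45% and 1.36% of counts in GR+/+ and 1.59%, 1.54% and 0.954% in GRdim/dim. The ratio of mtDNA-encoded to nuclear counts was 2.11, 2.55 and 2.25 in GR+/+ and 3.11, 2.89 and 1.32 in GRdim/dim. A pair of GRdim/dim libraries thus lay above all GR+/+ libraries and the third below all of them. The means, 2.30 ± 0.22 and 2.44 ± 0.98 (SD, n = 3), did not differ beyond that spread (two-sided exact permutation test, p = 0.9).

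**Figure D3:**
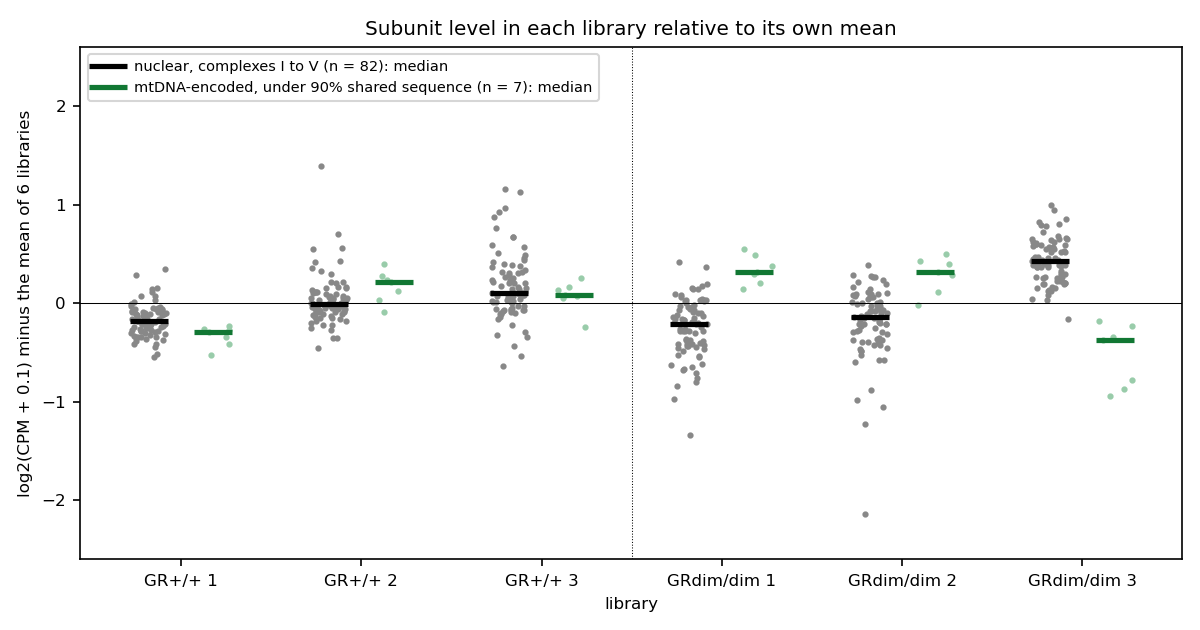
Level of each member in each library relative to its own mean over the 6 libraries, on a log2(CPM + 0.1) scale. Grey points are 82 nuclear members, green points 7 mtDNA-encoded members, and bars are medians. In GRdim/dim replicate 3 nearly all nuclear members lie above 0 and the mtDNA-encoded members below.

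Without GRdim/dim replicate 3 the median log2 fold change was -0.16 for nuclear members and 0.23 for mtDNA-encoded members. In that comparison 16 members had an unadjusted edgeR p under 0.05 and a lower level in GRdim/dim, beside 5.98% of all genes, and 2 a higher level (Atp5l and mt-Nd6), beside 5.53%. The 16 included Ndufa12 (log2 fold change -1.29), Uqcr11 (-1.67) and Atp5k (-1.82). None of the 94 was a DEG there, and the lowest adjusted p was 0.176. The nuclear median was also near 0 without GR+/+ replicate 1 (0.01, beside 0.02 for all genes). The mtDNA-encoded median was -0.15 without GR+/+ replicate 1, -0.09 without GRdim/dim replicate 1 and -0.16 without GRdim/dim replicate 2. It was 0.10 without GR+/+ replicate 2 and 0.16 without GR+/+ replicate 3, so its sign depended on the library left out.

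Transcript length and other gene groups moved with these library differences. Nuclear members have short transcripts, with a median of 787 bases. In GRdim/dim replicate 3 the 41 below that length stood 0.55 above their own mean and the 41 others 0.37 on the log2 scale (medians). Across the 82 members, the rank correlation of length with the deviation was -0.39 in that library, -0.44 in GR+/+ replicate 3 and 0.47 in GRdim/dim replicate 1. Over all genes tested it was -0.43, -0.01 and 0.19 in the same libraries. Cytosolic ribosomal proteins, also encoded by short transcripts, summed to 23409, 24255 and 33190 CPM in GR+/+ and to 23738, 28346 and 36253 CPM in GRdim/dim, highest in the same library. GRdim/dim replicate 3 was also the shallowest library (15687734 counts). GR+/+ replicates 1 and 2 were nearly as shallow (16638859 and 16361747 counts), and their median nuclear members stood at -0.19 and -0.01. The part of length and depth in the levels was not tested beyond a correction for length and GC content, under which the median for nuclear members was -0.02.

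Among the mtDNA-encoded members, mt-Nd6 had the highest log2 fold change of all 94, and was the only one of the 12 tested with an unadjusted p under 0.05. It encodes a subunit of the membrane arm of complex I (MT:13552-14070, minus strand). Its levels were 236, 320 and 288 CPM in GR+/+ and 501, 483 and 301 CPM in GRdim/dim. The third GRdim/dim library lay within the GR+/+ range. The log2 fold change was 0.60 (SE 0.23; unadjusted p = 0.0248, adjusted p = 0.443, edgeR). The other well-covered subunits had log2 fold changes of 0.14 (SE 0.24) for mt-Co1, 0.14 (SE 0.32) for mt-Nd2, 0.05 (SE 0.32) for mt-Nd5, 0.04 (SE 0.23) for mt-Nd1, -0.07 (SE 0.23) for mt-Cytb and -0.17 (SE 0.32) for mt-Nd4. For mt-Co1, mt-Nd2 and mt-Nd5, GRdim/dim replicates 1 and 2 lay above every GR+/+ library and replicate 3 below every one. Without replicate 3 their log2 fold changes were 0.32, 0.45 and 0.36.

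The share of mt-Nd6 in the counts of these 7 members separated the genotypes more clearly than its level. It was 2.24%, 2.26% and 2.10% in GR+/+ and 3.21%, 3.11% and 3.13% in GRdim/dim. All 3 GRdim/dim libraries were above all GR+/+ libraries, replicate 3 included, and the gap between genotypes was far wider than the spread within either. The mean share was 2.20% ± 0.09 in GR+/+ and 3.15% ± 0.05 in GRdim/dim (SD, n = 3), a ratio of 1.43. The two-sided exact permutation test gave p = 0.1, the smallest it can give with 3 against 3, and 0.7 after adjustment over the 7 shares compared. The other 6 shares overlapped between genotypes. These shares were computed after the levels had been seen. The RNA was captured by poly(A), and whether mt-Nd6 RNA was captured as fully as that of the other 6 was not tested. Counts of mt-Nd6 ranged from 3956 to 11625 per library, so counting error was small beside the difference.

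The only other subunit that overlaps mt-Nd6 is mt-Nd5, on the opposite strand, by 14 bases. Whether counting used strand is not given in the sources used here, so reads from mt-Nd6 and from the RNA antisense to it cannot be told apart. Of its 31-base windows 7.36% recur in another annotated gene.

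**Figure D4:**
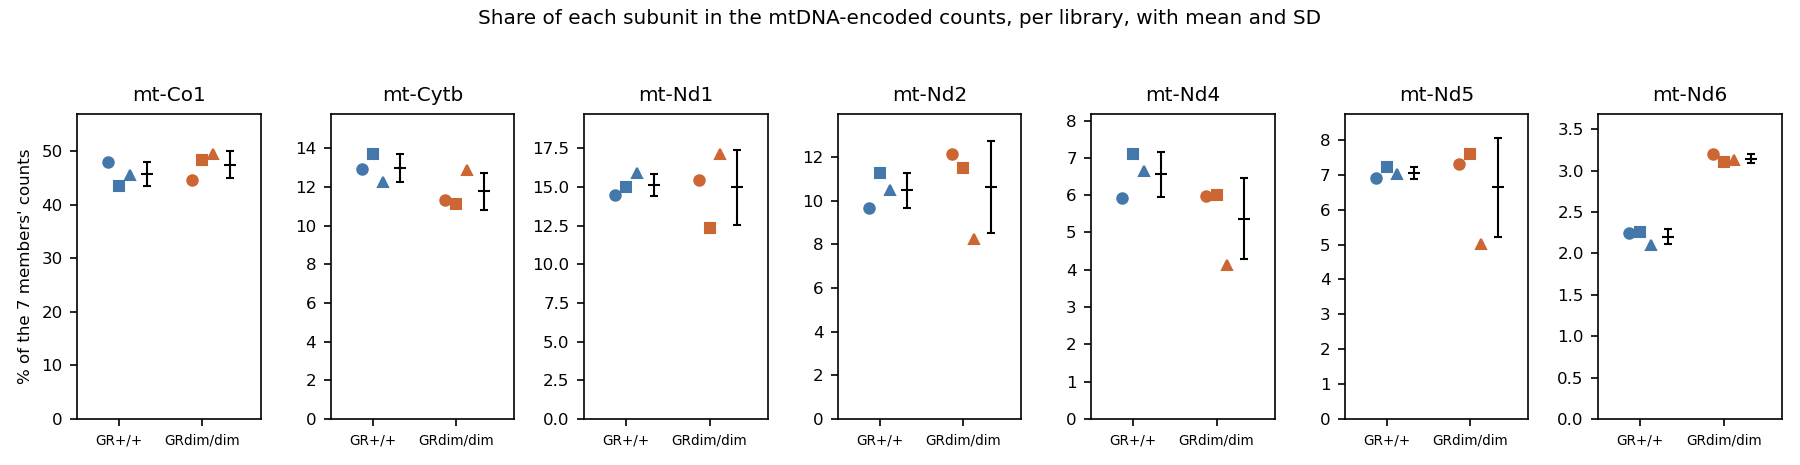
Share of each of 7 mtDNA-encoded members in their summed counts, in percent, per library. Circle, square and triangle are replicates 1, 2 and 3, and bars the mean and SD (n = 3). The mt-Nd6 shares are 2.10% to 2.26% in GR+/+ and 3.11% to 3.21% in GRdim/dim, and the other panels overlap.

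The levels of the mtDNA-encoded members fell into separate ranges. Per kb of transcript, mt-Co1, the catalytic subunit of complex IV, stood at 3958 CPM, mt-Nd1 at 2057, mt-Cytb at 1418, mt-Nd2 at 1371, mt-Nd6 at 684, mt-Nd4 at 581 and mt-Nd5 at 505. In contrast, mt-Co2 stood at 27.6 CPM per kb, mt-Atp6 at 26.4, mt-Co3 at 17.3, mt-Nd3 at 13.5 and mt-Nd4l at 7.08. The subunits mt-Co1, mt-Co2 and mt-Co3 form the core of complex IV together, and the first was counted at a far higher level than the others. The 5 low members lie next to each other on the mtDNA, with mt-Atp8 among them, from MT:7013 to MT:10173.

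Those 5 share nearly all of their sequence with unprocessed pseudogenes on chromosome 1. Between 98.1% (mt-Nd3) and 100% (mt-Co2) of their 31-base windows recur in other annotated genes. The 681 aligned bases of mt-Co2 and Gm28661, the 678 of mt-Atp6 and Gm10925, the 783 of mt-Co3 and Gm28437 and the 294 of mt-Nd4l and Gm10222 are identical, and mt-Nd3 and Gm28438 differ by T3C. The 7 annotated copies form a block of 4663 bases at chr1:24611535-24616197. Reads were counted on both sides, 180 to 973 per library for mt-Co2 and 241 to 1250 for Gm28661, and 138 to 824 for mt-Atp6 and 161 to 1133 for Gm10925. Counts of these members are therefore uncertain, and how reads with several matches were treated is not given in the sources used here. For mt-Co1 and mt-Nd4 63.9% and 62.8% of windows recur, and for mt-Nd1 none.

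Between genotypes the 5 low members had log2 fold changes of 0.36 (SE 0.49) for mt-Atp6, 0.07 (SE 0.40) for mt-Co3, -0.09 (SE 0.35) for mt-Co2, -0.42 (SE 0.51) for mt-Nd4l and -0.63 (SE 0.59) for mt-Nd3, none with an unadjusted p under 0.05. Sex is unbalanced between the genotypes and is given per group, not per library. With sex-linked expression as a covariate, mt-Atp6 was at 0.90 (unadjusted p = 0.0184, adjusted p = 0.499, edgeR). The median SD of the 5 within a genotype was 0.75 on the log2 scale, against 0.33 for the other 7. The 13th member, mt-Atp8, failed the filter with 0 to 20 counts per library. It overlaps mt-Atp6 by 43 bases, and 7.47% of its windows recur in annotated genes. The 233 bases between Gm10925 and Gm28661 hold no annotated gene, where mt-Atp8 lies between the corresponding mtDNA genes. The last member that was not tested was another Atp5o row with 0 counts in every library.

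**Figure D5:**
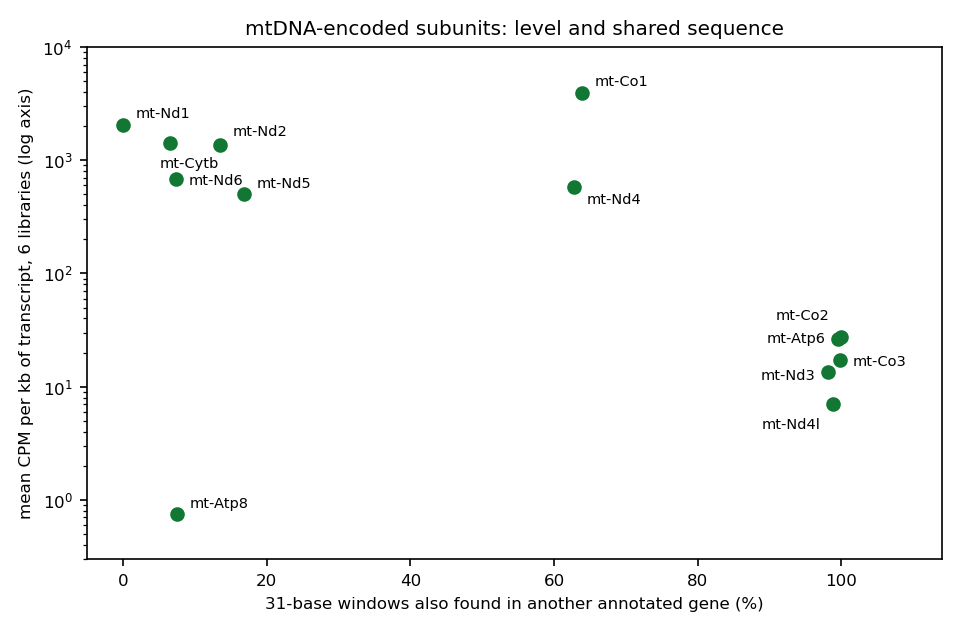
Mean level over the 6 libraries of the 13 mtDNA-encoded members (CPM per kb of transcript, log axis) against the percentage of their 31-base windows that recur in another annotated gene. The 5 members at 98.1% or more lie between 7.08 and 27.6 CPM per kb, and mt-Atp8 lies lowest at 0.75.

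Other genes of the pathway gave few calls. None of the lists held a DEG by edgeR. Among 23 genes that work with the chain but fall outside the names used (cytochrome c, coenzyme Q synthesis and electron-entry enzymes), 1 was higher at an unadjusted p under 0.05. This was Coq10b, a coenzyme Q-binding protein, at 48.7, 48.2 and 59.8 CPM in GR+/+ and 76.0, 127 and 108 CPM in GRdim/dim. It did not overlap between genotypes, with a log2 fold change of 0.99 (SE 0.21; adjusted p = 0.132 with edgeR and 0.00524 with DESeq2). Of the 50 assembly factors tested, none was higher and 2 were lower at that p, the copper-delivery factor Cox11 (-1.27, SE 0.41) and Taco1, an activator of mt-Co1 translation (-0.65, SE 0.27).

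Of the 32 factors of mtDNA transcription, RNA handling and translation tested, 1 was higher, Mterf3, a repressor of mtDNA transcription (0.60, SE 0.18; adjusted p = 0.319, edgeR), and none was lower. None of the 19 regulators of mitochondrial biogenesis had an unadjusted p under 0.05, and their median was -0.06. Among the 77 tested genes named as mitochondrial ribosomal proteins, 4 were higher, Mrps6 (0.76, SE 0.26), Mrpl52 (0.68, SE 0.24), Mrpl18 (0.45, SE 0.20) and Mrpl43 (0.43, SE 0.17). In the same list 1 was lower, Mrps36 (-0.89, SE 0.27). These 77 are called ribosomal proteins below by name alone, and whether each product, that of Mrps36 included, is part of the ribosome was not checked. Their list had a median of 0.05. Of these lists, the share called on the higher side was 5.19% at most, beside the 4.91% of all genes given above, and on the lower side the 2 of 50 assembly factors and 1 of 77 ribosomal proteins stand beside 4.68%. Every GRdim/dim library was above every GR+/+ library for 11 of the 77 ribosomal proteins and 5 of the 32 mtDNA factors, beside 7.77% of all genes. The same held for 1 of the 23 genes that work with the chain, 2 of the 50 assembly factors and 1 of the 19 biogenesis regulators. Every one was below for 2, 1, 2, 2 and 1 genes of these lists, in the order just given, beside 7.05%.

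Cell type markers varied in both directions. All 6 B cell markers had a log2 fold change above 0, with summed levels of 82.3 to 168 CPM in GR+/+ and 198 to 708 CPM in GRdim/dim. All 6 T cell markers (13.8 to 28.3 against 32.1 to 40.2 CPM) and all 6 neutrophil markers (239 to 466 against 340 to 1078 CPM) were above 0 as well, and the neutrophil sums overlapped between genotypes. Of the alveolar macrophage markers 5 of 7 had a log2 fold change below 0, and of the ciliated and the endothelial markers 5 of 6 each, with summed levels that overlapped between genotypes in all 3 lists. Of the 4 club cell markers 3 were above 0 and Scgb3a1 below. No marker was a DEG by edgeR. DESeq2 gave an adjusted p under 0.05 for Igkc (1.82e-05), Retnlg (0.0225), Trac (0.0253) and Cldn5 (0.0273) on the higher side and for Chil3 (0.0171) and Scgb3a1 (0.0285) on the lower. No marker of the lists in this paragraph was at 0 in every library. In bulk tissue, a change in the number of cells of a type and a change in the RNA per cell cannot be told apart, and the part of the cell mix in the subunit levels was not tested.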

How the data were processed

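RNA from 6 lungs, 1 library per mouse, was captured by poly(A) and sequenced commercially. The authors deposited read counts per gene with coordinates and biotypes. The submitters' processing notes name mm10 and DESeq2, and the aligner, the counter, its strand setting and the annotation release are not given in the sources used here. Members and gene lists were chosen with earlier results of these data known. Counts were used as deposited in edgeR 4.0.16 (TMM scaling, filterByExpr, robust quasi-likelihood fit, R 4.3.3), with genotype as the only term, all 6 libraries and Benjamini-Hochberg adjustment over all genes tested. Standard errors were taken from the coefficient and its F value. DESeq2, the tool the study names without a version, was run as an alternative in version 1.42.0, with other scalings, filters, a likelihood-ratio test, a replicate block, a sex covariate and each library left out. The sex covariate was sex-linked expression, since the sex of each library is not given in the sources used here. The fit was tested on simulated data. The edgeR p-values set the genotype difference of a gene against the spread between these mice, which the fit estimates with help from the other genes. An exact permutation test of 3 against 3 cannot give a p under 0.1. CPM were computed from TMM-scaled library sizes, and levels per kb used 1 principal transcript of GENCODE M21, which can differ from the transcript expressed. All 98 members were found in M21, 92 with identical coordinates.

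The members named were those with an adjusted or unadjusted p under 0.05, the highest and lowest log2 fold change and the highest level per kb of each complex, all mtDNA-encoded members, the tissue isoforms and those that failed the filter. A result that rests on 1 further member is not reported here. From other lists, up to 5 genes with an unadjusted p under 0.05 were named. Sequence sharing was counted in windows of 31 bases of the principal transcripts against all annotated transcripts. Libraries held 15687734 to 32082940 counts, and counting error is largest for the tested members with the fewest, mt-Nd4l (12 to 102 counts per library), Cox8b (19 to 90), mt-Nd3 (24 to 255) and Cox7a1 (42 to 96). The authors' own comparison, fold changes and p-values, was not used.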

Additional observations from a re-analysis of the deposited data

How the results depend on the processing

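No member was a DEG under any of the 15 alternatives run. The count of members with an unadjusted edgeR p under 0.05 was 5 higher and none lower, and the lower count was 4 without the filter on low counts, 5 with the replicate block, 1 with the sex covariate and 7 with a correction for length and GC content that was added after seeing the data. Of the 5 higher members, Sdhc had an unadjusted p over 0.05 with DESeq2, the likelihood-ratio test, the replicate block and the sex covariate, and mt-Nd6 with the length and GC correction. The higher count was 6 with either the sex covariate, mt-Atp6 (0.90) among them, or the length and GC correction. Leaving out each library in turn gave 0 to 6 higher, with 0 without GR+/+ replicate 1, 2 without GR+/+ replicate 2 and 2 without GRdim/dim replicates 2 or 3, and 0 to 16 lower, with 16 without GRdim/dim replicate 3. The median log2 fold change of nuclear members ran from -0.16 to 0.16 and that of mtDNA-encoded members from -0.16 to 0.27. These values lay within 0.27 (nuclear) and 0.39 (mtDNA-encoded) of the main value, a spread between single libraries. Both signs fall inside so wide a spread, so it does not show that the sign was stable. Over all genes, the 28 DEGs became 522 without the filter, 274 with DESeq2, 245 with the likelihood-ratio test and 4 to 22 with 1 library left out. The replicate numbers did not pair the libraries (same-numbered correlations 0.22, 0.04 and -0.05), so the block has no design behind it.

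Of 38 members named and tested, 18 kept their sign in every alternative, among them Atp5l (0.39 to 0.58 with 1 library left out), Atp5h (0.36 to 0.66), Ndufs7 (0.33 to 0.71), Sdhc (0.24 to 0.51) and mt-Nd6 (0.48 to 0.81). With the length and GC correction mt-Nd6 was at 0.39 and Atp5l at 0.36, both below these ranges. Sizes varied more for Atp5k (-1.82 to -0.57), Uqcr11 (-1.67 to -0.30), Ndufa12 (-1.29 to -0.41), Cox8b (-1.45 to -0.26), mt-Nd3 (-1.14 to -0.16) and mt-Nd4l (-1.08 to -0.079, and -0.0048 with the sex covariate). For the other 20, none called in any setting, log2 fold changes with the opposite sign were Cox6b2 -0.013, mt-Co2 0.034 and mt-Nd5 -0.039 with the replicate block, Cox6b2 -0.021, mt-Co2 0.36, mt-Cytb 0.067, mt-Nd4 0.084 and Uqcrh -0.022 with the sex covariate, and Cox6b2 -0.038, Cox7a2 -0.049, mt-Co3 -0.037, mt-Nd1 -0.12, mt-Nd2 -0.046, mt-Nd5 -0.11, Ndufa4 -0.058 and Uqcrh -0.062 with the length and GC correction. With 1 library left out the values were Cox4i1 -0.080 to 0.43, Cox4i2 -0.017 to 0.50, Cox6a2 -0.66 to 0.11, Cox6b1 -0.48 to 0.17, Cox6b2 -0.50 to 0.51, Cox7a1 -0.41 to 0.17, Cox7a2 -0.14 to 0.17, Cox7b -0.27 to 0.072, Cox8a -0.075 to 0.34, Ndufa4 -0.063 to 0.27, Ndufa4l2 -0.78 to 0.15, Uqcrh -0.28 to 0.25, mt-Atp6 -0.25 to 0.75, mt-Co2 -0.37 to 0.42, mt-Co3 -0.34 to 0.46, mt-Cytb -0.20 to 0.076, mt-Nd1 -0.12 to 0.16, mt-Nd2 -0.065 to 0.45, mt-Nd4 -0.35 to 0.14 and mt-Nd5 -0.15 to 0.36. The cause was not tested.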
